A study of Homo sapiens with 6 samples.

Results

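The genes described here are 10 of the TGF-beta pathway: the ligand genes TGFB1, TGFB2 and TGFB3, the matrix carrier gene LTBP1, the receptor genes TGFBR1, TGFBR2 and TGFBR3, the signal transducer SMAD3, and the feedback inhibitors SMAD7 and PMEPA1. They were chosen by name, with earlier results of these data known. Each of the 10 symbols matched 1 row among the 60612 Ensembl identifiers counted. RNA was sequenced in 6 libraries from T24, an established cell line of human bladder cancer. In 3 libraries, the negative control (genotype WT in the labels), the cells carried a control hairpin delivered by lentivirus. In the other 3, with both genotype and treatment given as FOXF1-activated, the lentivirus carried a hairpin made from a small activating RNA against FOXF1, a forkhead transcription factor gene. Stable cells were selected with puromycin, so both groups are transduced populations, and whether replicate libraries stem from separate cultures is not stated in the labels. The p-values thus reflect the spread among these 6 libraries alone, which may be technical.

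TGF-beta ligands are secreted as latent dimers, which latent TGF-beta binding proteins such as LTBP1 tether to the extracellular matrix until the ligand is released. Free ligand binds the type II receptor TGFBR2, which activates the type I receptor TGFBR1, and TGFBR1 phosphorylates SMAD2 and SMAD3. These join SMAD4 and enter the nucleus, where they induce, among many genes, SMAD7 and PMEPA1, both of which dampen the signal. In epithelial cells the pathway is known for halting proliferation, and in carcinoma cells for promoting mesenchymal traits.

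The levels of FOXF1 went against the labels. FOXF1 stood at 7.51, 7.10 and 7.95 CPM (counts relative to the library total, after TMM scaling) in negative control libraries 1, 2 and 3, and at 5.94, 4.78 and 5.10 CPM in those labelled FOXF1-activated (log2 fold change -0.51, SE 0.14, edgeR adjusted p = 0.0109). That call was lost with offsets for GC content and length (-0.26, adjusted p = 0.144). Every direction below is that of the libraries labelled FOXF1-activated relative to the negative control. Library totals ran from 72500854 to 77198669 counts, and a member held between 66 and 14108 counts in a library. Epithelial keratin genes KRT7, KRT8 and KRT18 were among the abundant transcripts, whereas the urothelial genes UPK1A and UPK3A and the basal keratin gene KRT5 had no count in any library. UPK2 and CDH1, of the same marker list, held at most 14 counts in a library and were not tested. From the controls to the other group, KRT7 fell from 539 to 203 CPM and KRT8 from 651 to 508 CPM. KRT18, at 532 and 481 CPM, was not called. The summed level of 13 urothelial and epithelial markers was 1766 to 1866 CPM in the controls and 1189 to 1259 CPM in the other group, with 1 of the 8 tested genes higher and 3 lower. Sums for 6 fibroblast markers were 327 to 351 and 223 to 367 CPM, with 2 genes lower. Sums for 5 immune markers were 28.9 to 35.2 and 23.1 to 26.0 CPM (2 of 4 tested genes higher, 1 lower), and for 4 endothelial markers 5.36 to 9.08 and 4.96 to 13.2 CPM (1 higher). The part of these markers in the results below was not tested.

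The 10 genes did not move in a common direction. All 10 passed the filter on low counts, and 8 of them were called at an edgeR adjusted p under 0.05, which is 4 higher and 4 lower. Of all 20334 genes tested, 60.7% were called, 29.2% higher and 31.5% lower, so the members' share lies in a comparison where most genes moved. With a filter of 1 CPM in 3 libraries a larger share of all tested genes was called, 11014 of 14638. Under that filter 4 members were higher and 3 lower. The groups were also apart, with no overlap of their libraries, in 8 of 10 members and in 68.8% of tested genes. TGFB2, TGFBR2, TGFBR3 and SMAD7 rose, PMEPA1, TGFBR1, SMAD3 and LTBP1 fell, and TGFB1 and TGFB3 were not called. The median log2 fold change of the members was -0.21, beside 0.00 over all tested genes. A level here is that of a whole culture, so fewer expressing cells and less RNA per cell cannot be told apart.

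**Figure D1:**
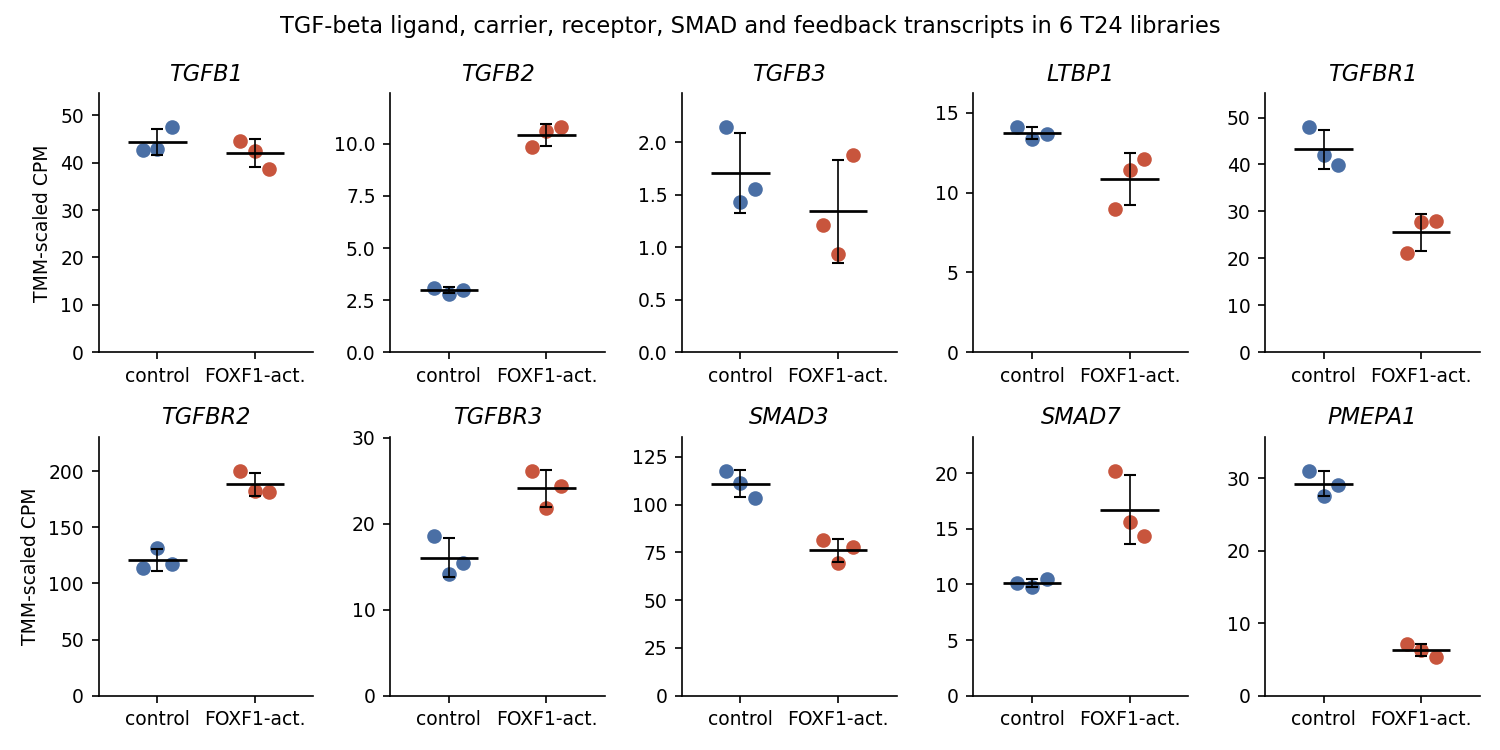
TMM-scaled CPM (vertical axes, from 0) of the 10 genes in the 3 negative control libraries (blue) and the 3 libraries labelled FOXF1-activated (red), with each group's mean and SD. PMEPA1 fell from about 29.3 to 6.30 CPM and TGFB2 rose from 2.97 to 10.4 CPM, while the points of TGFB1 and TGFB3 overlap between the groups.

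The stretches before the transcription starts of TGFB2 and PMEPA1 are shown because these genes had the largest rise and the largest fall among the members. Each line gives 250 bases that end at the start site, from RefSeq's promoter windows on GRCh38.p14, read 5′ to 3′ on the gene's strand. TGFB2 has 1 window in that table, at chr1:218345086-218345335 on the plus strand. Of the 4 windows of PMEPA1, the one with most of the searched motifs is printed, at chr20:57710578-57710827 on the minus strand. Capitals mark a SMAD half-site (CAGACA) and a forkhead motif (GTAAATA, or its complement TATTTAC).
TGFB2: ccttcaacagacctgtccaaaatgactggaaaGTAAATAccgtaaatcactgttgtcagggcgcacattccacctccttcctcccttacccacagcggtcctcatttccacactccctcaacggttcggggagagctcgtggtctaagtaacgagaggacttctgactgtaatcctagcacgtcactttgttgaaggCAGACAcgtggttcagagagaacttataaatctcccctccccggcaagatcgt
PMEPA1: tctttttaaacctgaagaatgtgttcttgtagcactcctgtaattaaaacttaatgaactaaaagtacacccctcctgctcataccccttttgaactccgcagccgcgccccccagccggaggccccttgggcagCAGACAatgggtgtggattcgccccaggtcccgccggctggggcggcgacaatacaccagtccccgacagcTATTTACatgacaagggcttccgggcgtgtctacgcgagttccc
Both motifs occurred in both windows, which for PMEPA1 the choice of the window favoured. The SMAD half-site began 53 bases before the start of TGFB2 and 115 before that of PMEPA1. The forkhead motif began 218 and 44 bases before them. These starts are not the gene starts of the GENCODE 29 annotation used below, which are 218346235 for TGFB2 and 57711536 for PMEPA1. Both strands of the 250 bases were searched in all 35116 windows of the table, of which 13.6% held CAGACA and 2.39% held GTAAATA. Of the 30 windows of the 10 genes, 7 held CAGACA (in TGFB2, PMEPA1, LTBP1, SMAD3 and TGFBR1) and 4 held GTAAATA (in TGFB2, PMEPA1, SMAD7 and TGFBR2). The forkhead form GTAAACA (2.98% of all windows) and the SMAD palindrome GTCTAGAC (0.182%) were in none of the 30, and the cyclic AMP response element TGACGTCA (1.65%) was in 1, of LTBP1. A match is a description of letters, not of a bound site.

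Among the ligands, TGFB2 rose while TGFB1, the most abundant of them, was not called. TGFB2 (ENSG00000092969; GRCh38, GENCODE 29, chromosome 1, 218346235 to 218444619, plus strand) encodes the isoform that binds TGFBR2 weakly unless the co-receptor TGFBR3 presents it. Its level was 3.10, 2.81 and 2.99 CPM in the negative control libraries 1, 2 and 3 and 9.84, 10.6 and 10.8 CPM in the other group. Every library labelled FOXF1-activated lay above every control, with means of 2.97 ± 0.14 and 10.4 ± 0.5 CPM (SD, n = 3 each). The log2 fold change was 1.81 (SE 0.13, edgeR adjusted p = 1.97e-06), a 3.51-fold rise, and 7.26% of tested genes rose more. The noncoding gene TGFB2-OT1 shares 26.6% of the exonic bases of TGFB2 on the same strand and held 1 or 2 counts in each library. Whether reads in the shared bases were counted for TGFB2 or left out is not given in the sources used here. The ligand shares and levels per kilobase below use the full exonic length of TGFB2.

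TGFB1 (ENSG00000105329; chromosome 19, 41301587 to 41353911, minus strand) encodes the isoform most often studied in carcinoma. Its controls stood at 42.7, 43.0 and 47.5 CPM and the libraries labelled FOXF1-activated at 44.7, 42.5 and 38.8 CPM. These ranges overlap, and the log2 fold change of -0.08 (SE 0.08) was not called (edgeR adjusted p = 0.393). With offsets for GC content and length it turned to 0.38 and was called (adjusted p = 0.00175), in a fit where the median gene moved up by 0.14. Under upper-quartile scaling, which moved the median gene up by 0.10, it was 0.019 (adjusted p = 0.842). An exon of HNRNPUL1 on the opposite strand covers 6.6% of the exonic bases of TGFB1, and HNRNPUL1 fell from 249 ± 5 to 131 ± 7 CPM. Whether the counting used strand is not given in the sources used here, and reads of such neighbours cannot be told apart.

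TGFB3 (ENSG00000119699; chromosome 14, 75958099 to 75982991, minus strand), the third isoform, was the least abundant member. It was at 2.14, 1.43 and 1.55 CPM in the controls and at 1.21, 0.931 and 1.88 CPM in those labelled FOXF1-activated. The groups overlapped, with the third library of the latter above 2 of the controls. The log2 fold change of -0.35 carried an SE of 0.31 (edgeR adjusted p = 0.366), and its value ran from -0.68 to -0.15 when single libraries were left out.

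The make-up of the ligand transcripts moved with TGFB2. Per kilobase of exon, TGFB2 made up 4.22%, 3.87% and 3.74% of the summed TGFB1, TGFB2 and TGFB3 counts in the controls and 12%, 13.4% and 14.5% in the libraries labelled FOXF1-activated. The mean share went from 3.94 ± 0.25% to 13.3 ± 1.3% (SD, n = 3 each), a difference of 9.36 percentage points. The exact two-sided permutation p of 0.1 is the smallest that 3 libraries against 3 can give. TGFB1 remained the main ligand transcript in all 6 libraries, with mean shares of 93.7 ± 0.8% and 84.9 ± 1.9% (exact p = 0.1). The share of TGFB3 was 2.39 ± 0.59% and 1.81 ± 0.75%, and its libraries overlapped (exact permutation p = 0.4).

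LTBP1 (ENSG00000049323; chromosome 2, 32946972 to 33399509, plus strand), which encodes the carrier that stores latent ligand in the matrix, fell slightly. Its controls were at 14.1, 13.4 and 13.7 CPM and the other libraries at 9.0, 11.4 and 12.1 CPM, without overlap. The log2 fold change was -0.34 (SE 0.13, edgeR adjusted p = 0.0425). This call was lost in 11 of 17 alternatives, with adjusted p between 0.0206 and 0.358 over them. Among them were leaving out negative control replicate 1 (-0.32), 2 (-0.36) or 3 (-0.35) and FOXF1-activated replicate 1 (-0.22) or 2 (-0.38), and the GC and length offsets (-0.13).

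**Figure D2:**
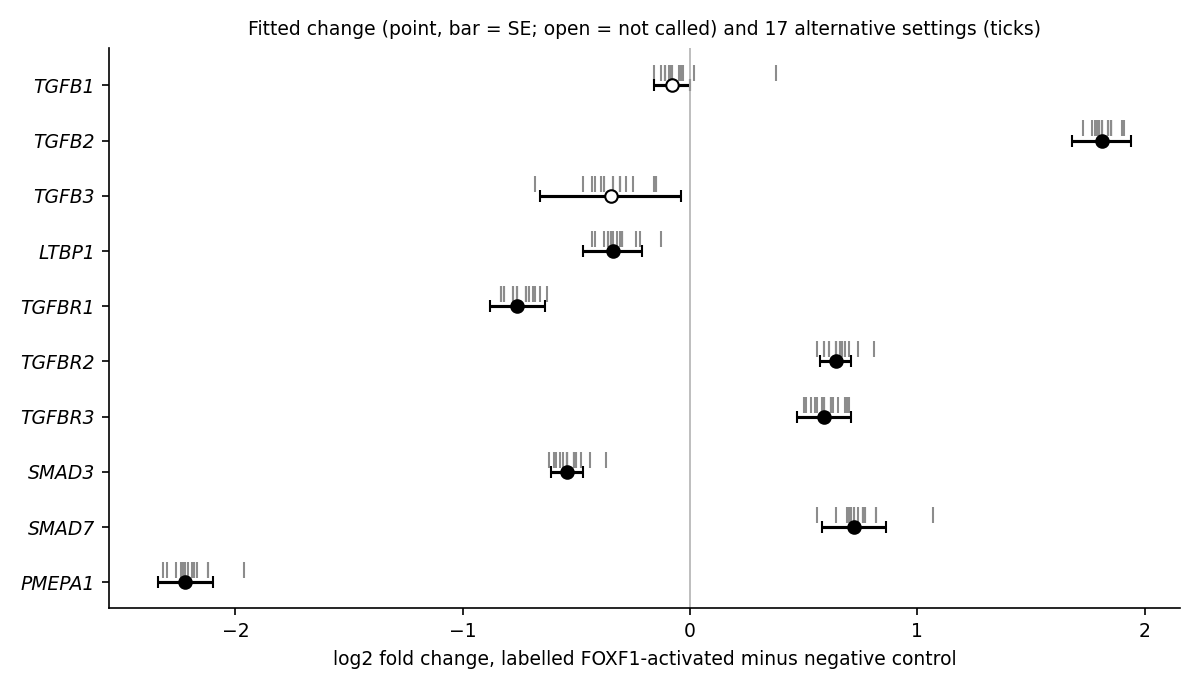
Log2 fold change of each gene (horizontal axis, libraries labelled FOXF1-activated minus negative control), as a point with its SE, filled where called, with grey ticks for 17 other settings or left-out libraries. Only TGFB1 has ticks on both sides of 0, and the ticks of PMEPA1 (-2.32 to -1.96) and TGFB2 (1.73 to 1.91) lie farthest from it.

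The receptor genes split. TGFBR1, which encodes the type I kinase that phosphorylates SMAD2 and SMAD3, fell, while TGFBR2, the type II kinase that binds ligand, and TGFBR3, the co-receptor betaglycan, rose. TGFBR1 (ENSG00000106799; chromosome 9, 99104038 to 99154192, plus strand) was at 47.9, 41.9 and 39.8 CPM in the controls and 21.1, 27.8 and 28.0 CPM in those labelled FOXF1-activated. The lowest control lay above the highest library of the other group, and the first of the latter was the lowest of all 6. The mean went from 43.2 ± 4.2 to 25.6 ± 3.9 CPM (SD, n = 3 each), with a log2 fold change of -0.76 (SE 0.12, edgeR adjusted p = 0.000403).

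TGFBR2 (ENSG00000163513; chromosome 3, 30606502 to 30694142, plus strand) was at 113.9, 132 and 117 CPM in the controls. In the libraries labelled FOXF1-activated it reached 200.3, 183 and 182 CPM. The groups lay apart by more than the range of either, and the log2 fold change was 0.64 (SE 0.07, edgeR adjusted p = 3.19e-05). TGFBR3 (ENSG00000069702; chromosome 1, 91680343 to 91906335, minus strand) was at 18.5, 14.1 and 15.5 CPM and at 26.2, 21.8 and 24.4 CPM. Its libraries did not overlap either, with a log2 fold change of 0.59 (SE 0.12, edgeR adjusted p = 0.00200).

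Set against each other per kilobase of exon, TGFBR2 exceeded TGFBR1 in all 6 libraries, and by more in those labelled FOXF1-activated. The log2 ratio of TGFBR2 to TGFBR1 was 1.79, 2.19 and 2.10 in the controls and 3.79, 3.26 and 3.24 in the other group. Its mean of 2.03 ± 0.21 against 3.43 ± 0.31 (SD, n = 3 each) corresponds to a ratio of 4.07 against 10.8. The groups did not overlap, and the exact two-sided permutation p was 0.1, again the smallest possible.

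**Figure D3:**
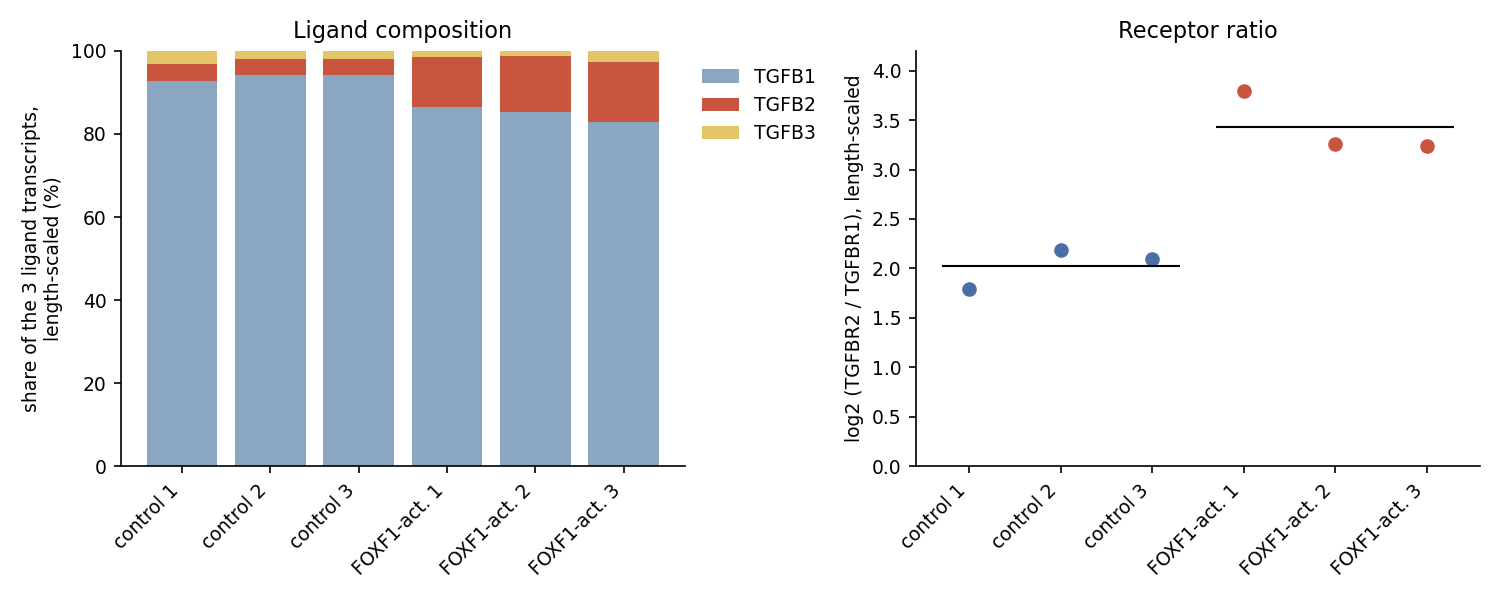
Left, share in percent of each ligand transcript in the summed length-scaled counts of TGFB1, TGFB2 and TGFB3, stacked to 100% for each library. Right, log2 ratio of TGFBR2 to TGFBR1 (length-scaled) in each library with lines at the group means of 2.03 and 3.43. The TGFB2 share runs from 3.74% to 4.22% in the controls and from about 12% to 14.5% in the libraries labelled FOXF1-activated.

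SMAD3 (ENSG00000166949; chromosome 15, 67063763 to 67195195, plus strand), which carries the signal of the activated receptor to DNA, fell. Its level was 118, 111 and 104 CPM in the controls and 81.3, 69.6 and 77.8 CPM in those labelled FOXF1-activated. The lowest control stood well above the highest library of the other group. The log2 fold change was -0.54 (SE 0.07, edgeR adjusted p = 0.000135).

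The feedback genes went opposite ways. SMAD7 (ENSG00000101665; chromosome 18, 48919853 to 48952052, minus strand) encodes the inhibitory SMAD that blocks TGFBR1 and recruits ubiquitin ligases to it. It rose from 10.2, 9.72 and 10.5 CPM to 20.2, 15.6 and 14.3 CPM. The spread was wider in the libraries labelled FOXF1-activated (16.7 ± 3.1 CPM) than in the controls (10.1 ± 0.4 CPM), with the first library the highest. The log2 fold change was 0.72 (SE 0.14, edgeR adjusted p = 0.00126), and without that first library it was 0.56.

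PMEPA1 (ENSG00000124225; chromosome 20, 57648392 to 57711536, minus strand) encodes a membrane protein that sequesters SMAD2 and SMAD3 and is itself a TGF-beta target. It stood at 31.1, 27.6 and 29.1 CPM in the controls and 7.16, 6.34 and 5.39 CPM in the other group. Every control was above every library labelled FOXF1-activated, and the mean in the latter was 21.5% of that in the controls. With a log2 fold change of -2.22 (SE 0.12, edgeR adjusted p = 3.40e-07) PMEPA1 changed more than any other member, and 4.17% of tested genes fell more. NKILA, a noncoding gene on the opposite strand that covers 6.1% of the exonic bases of PMEPA1, fell as well (log2 fold change -2.11, SE 0.50, edgeR adjusted p = 0.00479), at 1.23 ± 0.25 and 0.286 ± 0.202 CPM. NKILA held 79 to 120 counts in a control library and 9 to 36 in a library of the other group, and without a stated strand setting its reads and those of PMEPA1 cannot be told apart.

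Scaled to exonic length, the transcripts of the members covered a wide range. In the controls the order of CPM per kilobase ran from TGFBR2 (25.7 ± 2.0, SD, n = 3) over TGFB1 (13.7 ± 0.8), SMAD3 (12.2 ± 0.8), TGFBR1 (6.32 ± 0.61), PMEPA1 (5.21 ± 0.31), SMAD7 (2.01 ± 0.08), LTBP1 (1.87 ± 0.05), TGFBR3 (1.84 ± 0.26) and TGFB2 (0.576 ± 0.028) to TGFB3 (0.348 ± 0.077). Of these neighbours, LTBP1 and TGFBR3 overlapped in their libraries and the others did not. In the libraries labelled FOXF1-activated TGFBR2 (40.0 ± 2.2), TGFB1 (13.0 ± 0.9), SMAD3 (8.37 ± 0.66) and TGFBR1 (3.74 ± 0.58) kept the first 4 places. PMEPA1, at 1.12 ± 0.16, went from place 5 to place 9, below TGFB2 at 2.02 ± 0.10. There TGFBR1 overlapped with SMAD7 (3.32 ± 0.62), SMAD7 with TGFBR3 (2.77 ± 0.25), and LTBP1 (1.48 ± 0.22) with PMEPA1.

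**Figure D4:**
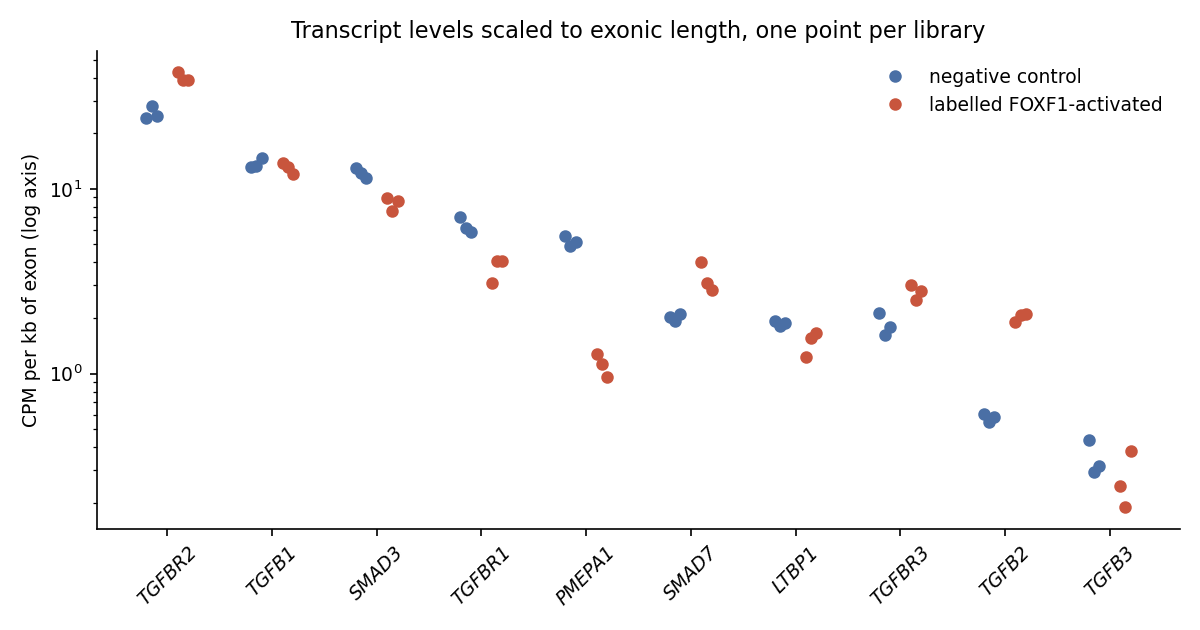
CPM per kilobase of exon (log axis) of the 10 genes, ordered by their mean in the controls, with 1 point per library (blue, negative control; red, labelled FOXF1-activated). PMEPA1 drops from 5.21 to 1.12 and TGFB2 climbs from 0.576 to 2.02, while TGFBR2 is the highest in both groups.

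Genes whose levels over the 6 libraries were most like those of a member were sought among 10980 other genes by the root mean square difference of centred log2 CPM. This measure includes the difference between the groups, so it favours genes with a fold change like that of the member. The nearest to PMEPA1 were GDF11, which encodes a ligand of the TGF-beta superfamily (difference 0.053), TEAD2 (0.0669) and CFB (0.0840). Their log2 fold changes were -2.22, -2.23 and -2.23, beside -2.22 for PMEPA1, and a shared regulation was not tested. N4BP2 (0.0243), ARID3A (0.0488) and LIMCH1 (0.0513) were nearest to TGFB2. For SMAD7 they were PIM3 (0.0439), SNHG7 (0.0681) and NDUFAF7 (0.0737). SPSB2 (0.0599) and PCOLCE (0.0618) were among the 3 closest to TGFBR1. The profile of TGFBR2 was matched by HINT1 (0.0229), BDH1 (0.0232) and MTG2 (0.0313), and that of TGFBR3 by BNIP3 (0.0279), SPATA5 (0.0377) and H2AC6 (0.0539). Such likeness was common, as 130 genes lay within 0.2 of PMEPA1, 217 of TGFB2 and 2334 of TGFBR2.

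Other genes of the pathway were read in 5 lists, also chosen with earlier results of these data known. Of all tested genes, 29.2% were called higher and 31.5% lower, and the counts of each list stand beside these shares. Among genes of ligand storage and activation, 2 of 15 tested were higher and 8 lower, with a median log2 fold change of -0.40. The genes of the 3 other latent TGF-beta binding proteins fell. LTBP3 went from 115 ± 5 to 23.9 ± 1.4 CPM (log2 fold change -2.26), LTBP2 from 298 ± 12 to 138 ± 21 CPM (-1.11), and LTBP4 had a log2 fold change of -0.57. PLAT, which encodes the plasminogen activator of tissue type, fell from 171 ± 2 to 34.5 ± 6.3 CPM (-2.31). MMP14, a membrane-bound matrix protease, rose from 375 ± 27 to 647 ± 43 CPM (0.79), and THBS1, thrombospondin-1, an activator of latent ligand, rose by 0.32 on the log2 scale. Of the genes called in this list, these were the only 2 that rose.

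Co-receptors and related receptors were 4 higher and 4 lower of 11 tested, with a median of -0.30. The co-receptor gene CD109, which encodes a membrane-anchored TGF-beta co-receptor that restrains signalling, fell from 127 ± 6 to 25.2 ± 0.6 CPM (log2 fold change -2.33). ENG, endoglin, fell from 90.2 ± 5.7 to 33.6 ± 4.6 CPM (-1.42), unlike the related co-receptor gene TGFBR3, which rose. NRP1, neuropilin-1, fell by 1.21 on the log2 scale. The activin receptor gene ACVR2B (1.08) and TGFBRAP1 (0.77), whose product binds TGF-beta receptors, rose. ACVR2A rose by 0.33 (edgeR adjusted p = 0.0486), a call lost in 8 of 17 alternatives, among them leaving out any of the 3 controls or FOXF1-activated replicate 2 or 3. BAMBI, a pseudoreceptor gene and TGF-beta target, was at 1.36 ± 0.01 and 1.48 ± 0.46 CPM and was not called (log2 fold change 0.12, edgeR adjusted p = 0.735, and -0.063 without FOXF1-activated replicate 1).

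Of 14 SMADs and signal transducers, 6 were higher and 3 lower, with a median of -0.03. SMAD2, the partner of SMAD3 downstream of TGFBR1, rose from 75.2 ± 4.0 to 104 ± 7 CPM (log2 fold change 0.47, edgeR adjusted p = 0.000200), where SMAD3 fell. SMAD4, the shared partner, was at 82.4 ± 1.3 and 79.5 ± 5.4 CPM without a call (-0.05, edgeR adjusted p = 0.489, and 0.048 under upper-quartile scaling). EP300, a histone acetyltransferase and SMAD coactivator, rose by 0.57 and TAB2, of the TAK1 kinase branch, by 0.53. TAB1, of the same kinase complex, fell from 43.6 ± 1.6 to 14.0 ± 0.5 CPM (-1.64), and CAV1, caveolin-1, by 1.57 on the log2 scale.

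Repressors and ubiquitin regulators were 7 higher and 7 lower of 20, with a median of 0.08. SMURF2, which encodes a ubiquitin ligase that SMAD7 brings to TGFBR1, rose from 126 ± 4 to 394 ± 5 CPM (log2 fold change 1.65), and NEDD4L, a ligase of the same family, from 130.3 ± 6.2 to 391 ± 18 CPM (1.59). LDLRAD4, a paralogue of PMEPA1 that likewise binds SMAD2 and SMAD3, rose from 1.02 ± 0.41 to 8.16 ± 2.77 CPM (2.99), opposite in direction to PMEPA1. The deubiquitinase gene USP11 fell from 108 ± 7 to 26.1 ± 1.5 CPM (-2.05) and the corepressor gene TGIF1 by 1.12 on the log2 scale. RNF111, which encodes the ligase Arkadia, fell by 0.28, a call lost in 5 of 17 alternatives, including without negative control replicate 2 or 3 and without FOXF1-activated replicate 2. SKIL, a corepressor gene that TGF-beta induces, was at 44.0 ± 4.7 and 48.1 ± 4.5 CPM and was not called (0.13, edgeR adjusted p = 0.273). The number of lower genes in this list was 3 without negative control replicate 2 and 4 without negative control replicate 3, and with GC and length offsets 11 were higher and 4 lower. Over all tested genes, those offsets moved the higher part of the called genes from 48.1% to 57.4%.

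Genes widely used as readouts of TGF-beta signalling went both ways, with 9 of 30 higher and 12 lower and a median of -0.22. The cell cycle inhibitor gene CDKN2B fell from 17.4 ± 2.0 to 6.43 ± 0.86 CPM (log2 fold change -1.44), as did the fibronectin gene FN1 (-3.49) and VEGFA (-2.06). CCN2, which encodes connective tissue growth factor, rose by 4.10 on the log2 scale. TUFT1 rose from 13.6 ± 1.8 to 48.2 ± 6.4 CPM (1.82) and the actin-binding gene TAGLN from 10.2 ± 2.0 to 35.2 ± 5.0 CPM (1.78). The share of genes called in the 5 lists was 64.3% to 72.7%, beside 60.7% of all tested genes. Many of the latter had low counts. With a filter of 1 CPM in 3 libraries a larger share of all tested genes was called, 11014 of 14638.

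**Figure D5:**
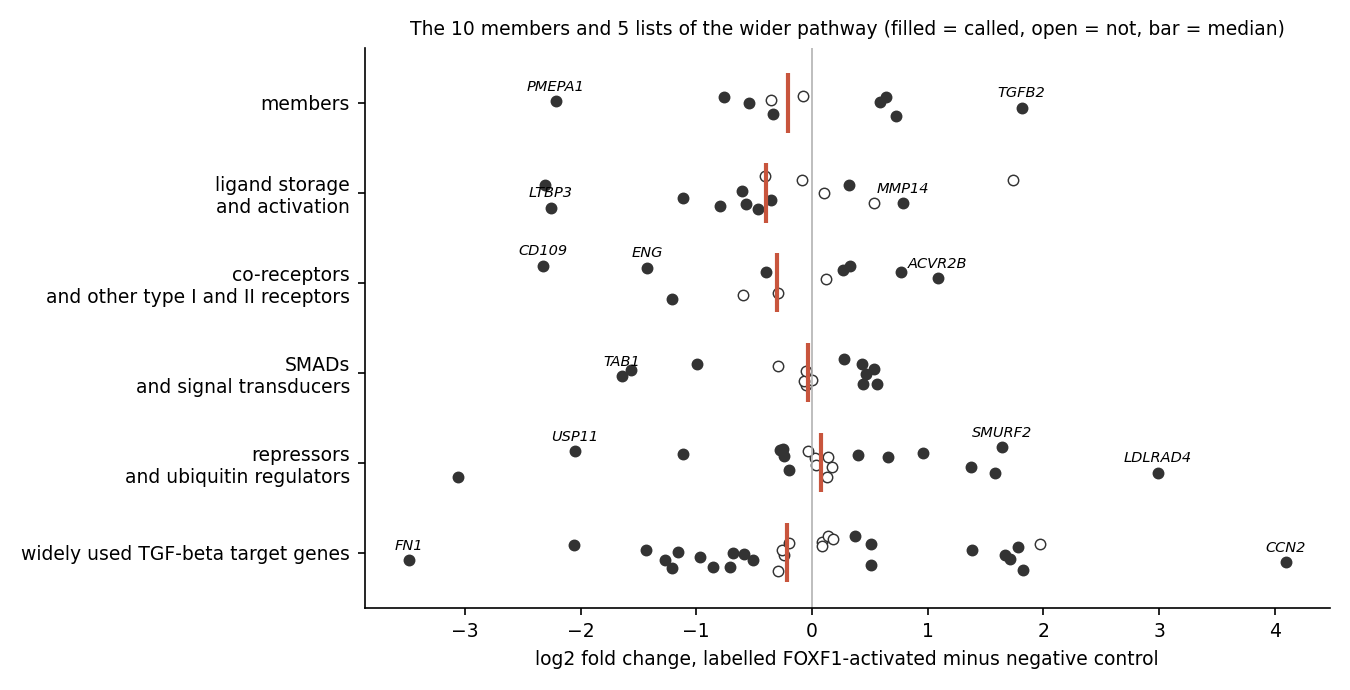
Log2 fold change (horizontal axis, libraries labelled FOXF1-activated minus negative control) of the 10 members and of the tested genes of the 5 lists, 1 point per gene, filled where called, with a red bar at each median. Each row holds called genes on both sides of 0, and the medians lie between -0.40 and 0.08.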

How the data were processed

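RNA depleted of ribosomal RNA was sequenced from 6 T24 libraries, 3 in each of 2 groups taken from the titles and treatment labels. The deposited table holds whole-number counts per Ensembl gene with no normalisation. Per the submitters' processing notes, tools included cutadapt 1.9 and TopHat2 2.0.4 on GRCh38. The sources used here do not name the counting tool, its use of strand or the annotation release. Low counts pile up at 4, 8 and 12 (2.36, 1.94 and 1.60 times the neighbouring values), so depth may be overstated. Replicates differed by more than the sampling noise of the counts as deposited (chi-square per degree of freedom 19.5 to 33.4). Overstated depth would raise these values, and they were not computed on divided counts.

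Symbols matched 60401 of 60612 identifiers. Coordinates and exonic lengths are those of GENCODE 29. Genes were kept by filterByExpr (minimum count 10, minimum total 15), scaled by TMM and tested in edgeR 4.0.16 (R 4.3.3) by its quasi-likelihood test, without covariates, with Benjamini-Hochberg adjustment over 20334 genes and a threshold of 0.05. The SE is the log2 fold change divided by the root of F. The test was also run on simulated counts in which few genes changed. That run does not bear on the scaling of data where most genes moved. Ligand shares and the receptor ratio were compared by exact two-sided permutation. Marker sums are CPM of the library total, without TMM.

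Alternatives were other scalings and filters, DESeq2 1.42.0, limma-voom (limma 3.58.1), the replicate number, a prior count of 2, counts divided by 4, GC and length offsets, and leaving out each library. The members and lists were chosen with earlier results of these data known. In each list the text names the 3 largest called rises and falls with a mean of at least 5 CPM in the higher group, and CCN2, SMAD2, SMAD4, SKIL, BAMBI and ENG. Some genes the rule covers are not reported here. GDF11 and the other nearest genes are the 3 closest of those with at least 5 CPM. LTBP4, NKILA and HNRNPUL1 were named after their values were seen.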

Additional observations from a re-analysis of the deposited data

How the results depend on the processing

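Over 17 alternatives each, TGFB2, TGFBR1, TGFBR2, TGFBR3, PMEPA1, SMAD3 and SMAD7 kept their direction and their call, with log2 fold changes of 1.73 to 1.91, -0.83 to -0.63, 0.56 to 0.81, 0.50 to 0.70, -2.32 to -1.96, -0.62 to -0.37 and 0.56 to 1.07. TGFB3 was not called in any. TGFB1 turned sign under GC and length offsets (0.38, called) and upper-quartile scaling (0.019, not called), SMAD4 under upper-quartile scaling (0.048), and BAMBI without 1 library (range -0.063 to 0.36). The cause was not tested. Members called were 4 to 5 higher and 3 to 4 lower. Lower calls among the 20 repressors and ubiquitin regulators went from 7 to 4 with a filter of 1 CPM in 3 libraries, GC and length offsets (11 higher), counts divided by 4 or upper-quartile scaling, and to 3 to 6 when a library was left out. Over all tested genes, 48.1% of the called genes were higher in the main fit. That part was 57.4% with GC and length offsets and 53.6% under upper-quartile scaling. Of 561 values for the 33 named genes of the lists, 546 kept direction and call, 13 lost the call and 2 turned sign. The ligand shares and the receptor ratio kept their direction in all alternatives run. Same-numbered libraries of the groups did not deviate together (correlations -0.0202, -0.000998 and -0.0206), and no library correlated best with its own number. With the replicate number as a block, 4 members were higher and 3 lower, LTBP1 (-0.35, adjusted p = 0.0574) lost its call, and 11790 genes were called in all, against 12351. Counts limit TGFB3 most, with 66 to 171 counts in a library.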
